A study of Mus musculus with 238 samples.

Results

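Motor cortex and visual cortex of the same control animals were compared across all genes. The members were the control libraries of both areas, chosen by what the labels give as tissue, treatment and animal number: 14 libraries from 7 mice, out of 238 libraries in the series. All mice were C57BL/6JN, an inbred black laboratory strain, and 19 months old. The 4 AL mice (63, 66, 68, 69) were female and freely fed, the controls of a dietary experiment. The 3 PBS mice (76, 80, 84) were male and given saline, the controls of a plasma injection experiment. Sex and experiment therefore cannot be told apart. RNA came from homogenised pieces of tissue, so fewer cells of a type and less RNA per cell cannot be told apart either.

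The neocortex has one plan of 6 layers everywhere, and its areas differ in how thick each layer is and in which cells fill it. Visual cortex is a sensory area with a thick granular layer 4 that receives input from the thalamus, whereas rodent motor cortex has a thin layer 4 and a prominent layer 5 with large neurons projecting to the spinal cord and brainstem. Gradients of transcription factors such as Nr2f1 set up these areas in development.

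Library totals were 3.66 to 17.3 M counts and did not differ between areas by an exact sign-flip permutation test over 7 mice (two-sided p = 0.5625). The share of counts from mitochondrially encoded genes was 2.23 to 2.62% in motor cortex and 1.70 to 2.20% in visual cortex. It was higher in motor cortex in 7 of 7 mice (exact sign-flip permutation test, two-sided p = 0.0156, the smallest this design allows). Xist and the Y-linked Ddx3y matched the labelled sex in all libraries. The visual cortex library of PBS mouse 76 stood apart. Among 91 described genes whose areas did not overlap in the other 6 mice, it lay in the visual range for 33, in the motor range for 16, and beyond the motor range for 4. For the other 13 libraries, 0 to 6 genes lay in the range of the opposite area. A further motor cortex library, of PBS mouse 72, has no visual partner and entered no paired test. Of the 25 genes chosen by size or p, it lay only in the motor range for 3 and only in the visual range for 10. It lay in both ranges for 1 and in neither for 11. Htr2a, at 19.6 CPM (a count scaled to the library total), was in the visual range. Its summed myelin genes (5195 CPM) lay only in the motor range. Its summed monoamine and acetylcholine receptors (793 CPM) lay only in the visual range. Its meningeal fibroblast genes summed to 3453 CPM, above both ranges. How the tissue of these libraries was taken, and whether their area labels hold, was not tested. Values of mouse 76, or without it, are given beside some of the results that its library moves.

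Of 13227 genes tested, 1895 (14.3%) were higher in motor cortex and 1661 (12.6%) higher in visual cortex, 26.9% in all, at an adjusted p under 0.05 (edgeR quasi-likelihood test with mouse as a block, Benjamini-Hochberg). Differences are log2 values, motor minus visual, so a positive value is higher in motor cortex. Most were small: the median size among called genes was 0.30, and 71 genes were at least 2-fold higher in motor cortex and 78 at least 2-fold higher in visual cortex. The same sign was seen in 7 of 7 mice for 2376 of the called genes, and 767 had no overlap between areas. Without mouse 76, 3143 genes were called, and adding the unpaired library of mouse 72 in a fit without pairing left 1909.

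**Figure D1:**
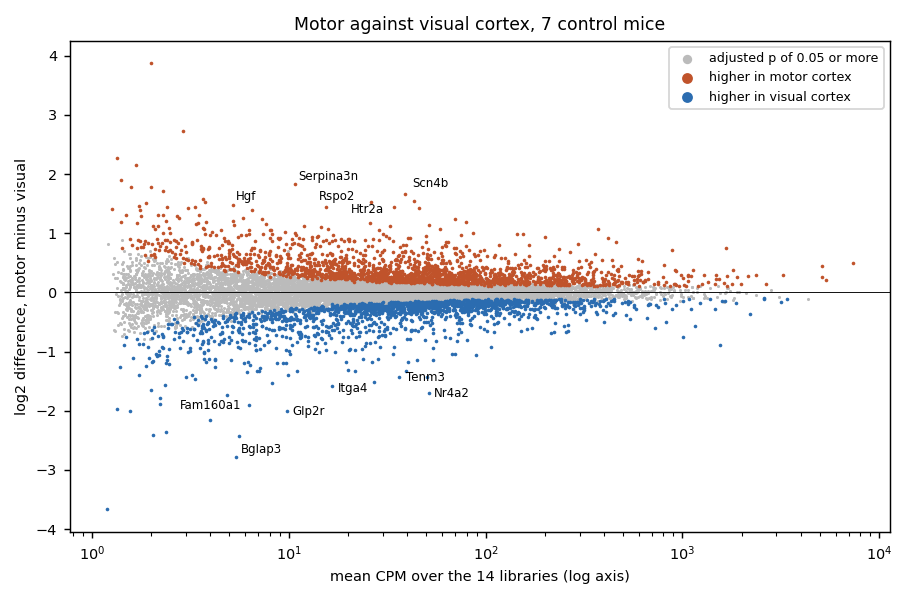
Each point is a gene, with its mean CPM over the 14 libraries on a log axis and its log2 difference, motor minus visual, on the vertical axis; colours mark genes with an adjusted p under 0.05. Called genes lie on both sides of 0 at all levels, and Scn4b and Htr2a are among the largest differences towards motor cortex.

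The genes with the largest differences towards motor cortex included receptors and channels of neurons. Htr2a, the serotonin 2A receptor (chromosome 14, 74640874 to 74706859, GRCm38.p6), was at 41.2, 50.6 and 55.9 CPM (lowest, median, highest) in motor cortex and 14.4, 17.9 and 24.0 CPM in visual cortex. The areas did not overlap, and the log2 difference was 1.44 ± 0.06 (SE, n = 7 mice; edgeR adjusted p = 9.1e-09). Scn4b, a sodium channel beta subunit, was at 42.4, 56.6 and 84.0 CPM in motor cortex and 17.2, 17.9 and 23.0 CPM in visual cortex. Its ranges were also apart, with a log2 difference of 1.66 ± 0.11 (SE, edgeR adjusted p = 1.61e-07). Lynx1, a membrane-anchored modulator of nicotinic acetylcholine receptors, was at 218, 262 and 287 CPM in motor cortex and 129, 136 and 154 CPM in visual cortex. Every motor library was above every visual one (log2 difference 0.93 ± 0.05, SE, edgeR adjusted p = 2.65e-08).

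Serpina3n, a secreted serine protease inhibitor, had the largest difference towards motor cortex among genes with a mean of at least 5 CPM. Its levels were 13.2, 15.9 and 19.5 CPM in motor cortex and 3.66, 4.62 and 7.52 CPM in visual cortex, without overlap (log2 difference 1.84). Others were Diras2 (1.54), Adra1b (1.52), Hgf (1.47), which encodes hepatocyte growth factor, Rspo2 (1.44), a secreted enhancer of Wnt signalling, Lmo3 (1.43), Plch1 (1.40) and Tigar (1.25), and none of these overlapped between areas. The difference of Plch1 was 0.09 in PBS mouse 76 and 0.64 to 1.71 in the other mice. Scd1, the stearoyl-CoA desaturase (0.97), and Cnr1, the cannabinoid receptor of many cholecystokinin interneurons (0.79), were among the genes with the smallest p.

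Towards visual cortex, the leading genes included adhesion and guidance molecules. Tenm3, a teneurin adhesion molecule known for its part in wiring the visual pathway (chromosome 8, 48225665 to 49522824, GRCm38.p6), was at 14.5, 17.3 and 32.1 CPM in motor cortex and 36.4, 50.9 and 74.6 CPM in visual cortex. The areas did not overlap (log2 difference -1.43 ± 0.08, SE, edgeR adjusted p = 8.49e-08). Itga4, the integrin alpha 4 subunit, was at 7.06, 8.49 and 8.73 CPM in motor cortex and 15.0, 28.2 and 33.6 CPM in visual cortex, again apart (-1.58). Its gene overlaps Cerkl, and the libraries carry no strand, so reads of the pair cannot be told apart.

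Bglap3, of the osteocalcin gene cluster, had the largest difference of all genes with a mean of at least 5 CPM. It was at 0.371, 1.33 and 2.35 CPM in motor cortex and 4.76, 9.54 and 11.9 CPM in visual cortex (log2 difference -2.78). It has near-identical neighbours, so its count is uncertain. Glp2r (-2.01; it overlaps Gas7), Fam160a1 (-1.91), Nr4a2 (-1.71), Efna1 (-1.53), Qrfpr (-1.40) and Ngb (-1.35), which encodes neuroglobin, were also higher in visual cortex without overlap. Egr2 (-1.44) overlapped between areas but was higher in visual cortex in 7 of 7 mice. Tenm2 (-0.81) and Chn2 (-0.92) were among the smallest p.

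**Figure D2:**
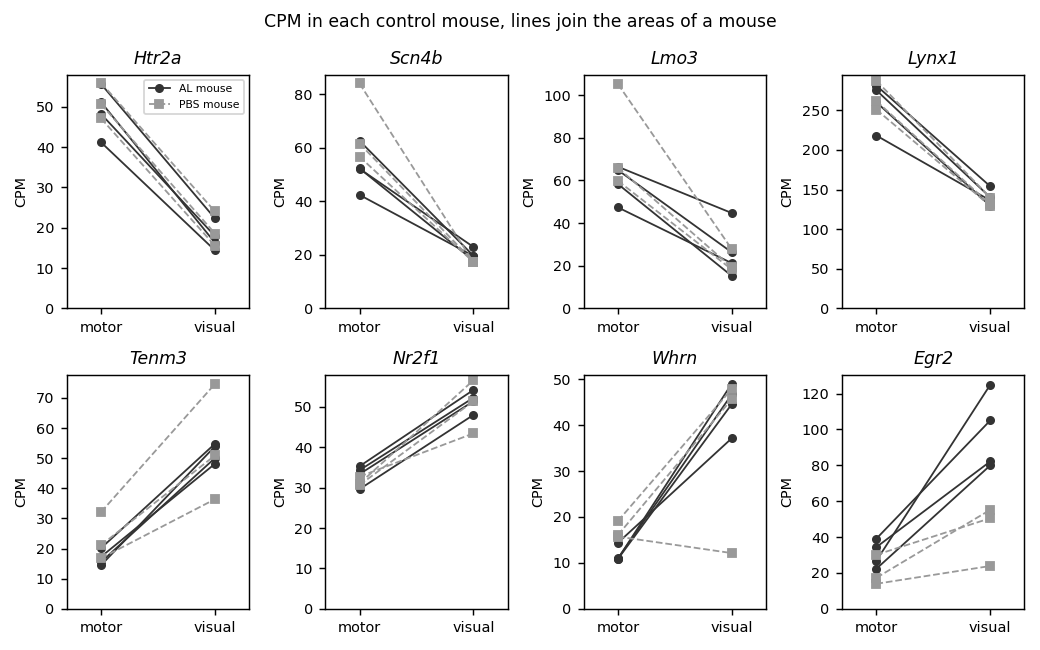
CPM of 8 genes in motor and visual cortex of each of the 7 control mice; a line joins the areas of a mouse, solid for AL and dashed for PBS. All lines fall for Htr2a and rise for Tenm3, and for Whrn only the line of PBS mouse 76 falls, from 15.7 to 12.1 CPM.

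The counts of each gene list, here and below, are to be read beside the shares over all tested genes. Those were 14.3% higher in motor cortex and 12.6% higher in visual cortex. Genes of cortical area patterning were called in both directions: 8 of 31 tested were higher in motor cortex and 11 higher in visual cortex, with a median of -0.06. Leaving out PBS mouse 80 took the count towards visual cortex from 11 to 6, and the median ran from -0.11 to -0.02 over the mice left out. Towards visual cortex, the graded nuclear receptor Nr2f1 was at 29.6, 32.7 and 35.3 CPM in motor cortex and 43.4, 51.4 and 56.6 CPM in visual cortex. Its areas did not overlap, and the log2 difference was -0.66 (edgeR adjusted p = 2.81e-06). Bhlhe22 (-0.94), a transcription factor of area identity, and Lhx2 (-0.35) were likewise apart, as was the ephrin receptor Epha5 (-0.38). Towards motor cortex, the LIM-only factor Lmo3 was at 47.3, 64.8 and 105 CPM against 15.2, 21.2 and 44.7 CPM in visual cortex. Its relative Lmo4 (0.52), Epha7 (0.67), Crym (0.91), a thyroid hormone binding protein, and Cdh11 (0.39) were higher in motor cortex in 7 of 7 mice but overlapped in range. Emx2, a graded homeobox factor, was at 0.14 (edgeR adjusted p = 0.501), Pax6 at -0.29 (adjusted p = 0.0984, edgeR) and Nr2f2 at -0.19 (adjusted p = 0.328, edgeR).

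Markers of layer 4 excitatory neurons were mostly higher in visual cortex, 8 of 13 against 2 of 13 higher in motor cortex, with a median of -0.45. Whrn, a scaffold protein, was at 10.9, 14.4 and 19.1 CPM in motor cortex and 12.1, 45.7 and 49.0 CPM in visual cortex (log2 difference -1.51, edgeR adjusted p = 4.03e-05). The lowest visual value was that of mouse 76; the other 6 were above all motor libraries, and without that mouse the log2 difference was -1.70. Endou was at 0.953, 2.0 and 2.84 CPM in motor cortex and 2.15, 10.1 and 12.5 CPM in visual cortex (-2.43), again with mouse 76 lowest, and at -2.66 without that mouse. Rorb, the transcription factor that defines many layer 4 neurons, was at 80.2, 91.2 and 152 CPM in motor cortex and 56.2, 164 and 193 CPM in visual cortex. Its log2 difference was -0.54 (edgeR adjusted p = 0.0143), and without mouse 76 it was -0.70 (edgeR adjusted p = 0.00039455); the call was lost without PBS mouse 80 (adjusted p = 0.0515, edgeR), under DESeq2, with no replicate block, with all 15 libraries and in PBS mice alone. Scnn1a (-2.40), a sodium channel subunit used as a layer 4 driver line, Rspo1 (-0.80) and Unc5d (-0.72) were also higher in visual cortex. Levels of Scnn1a were low and overlapped, at 0 to 2.04 CPM in motor cortex and 1.38 to 6.55 CPM in visual cortex. Kcnh5 (0.37) and Kcnip2 (0.21) were higher in motor cortex.

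Layer 2 and 3 markers showed the same direction, with 10 of 15 higher in visual cortex, 1 higher in motor cortex, and a median of -0.33. Calb1, the calcium buffer calbindin, was at 106, 174 and 220 CPM in motor cortex and 235, 259 and 301 CPM in visual cortex. Its areas did not overlap (-0.69, edgeR adjusted p = 7.4e-05), nor did those of Lpl (-0.97), lipoprotein lipase, and Otof (-0.96), otoferlin. The upper layer factors Cux1 (-0.54) and Cux2 (-0.52) overlapped in range. Matn2 (0.44) was the exception towards motor cortex.

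Layer 5 markers were split, 5 of 17 higher in motor cortex and 3 higher in visual cortex (median 0.18). Over all tested genes the shares were 14.3% and 12.6%. Bcl11b, a factor of neurons projecting below the cortex (0.40), Deptor (0.50), Sulf2 (0.63), Crym (0.91) and Pou3f1 (0.18) were higher in motor cortex. Qrfpr, a neuropeptide receptor, was at 4.62, 5.26 and 6.67 CPM in motor cortex and 10.4, 15.2 and 16.4 CPM in visual cortex, without overlap. Fezf2, the selector of layer 5 projection neurons, was at -0.06 (edgeR adjusted p = 0.72) and Etv1 at 0.21 (edgeR adjusted p = 0.191). The difference of Etv1 was -0.72 in PBS mouse 76 and 0.14 to 0.53 in the other mice. Over the mice left out it ran from 0.15 to 0.35. Genes of large projection neurons and their cytoskeleton were higher in motor cortex for 7 of 12 and higher in visual cortex for 1 (median 0.36). Nefh, the heavy neurofilament, was at 90.5, 112 and 128 CPM in motor cortex and 63.0, 71.0 and 89.5 CPM in visual cortex, without overlap (0.63, edgeR adjusted p = 5.06e-06). The microtubule regulator Stmn2 (0.52) was also apart. Spp1, osteopontin, went the other way (-1.13), at 11.9 to 18.5 CPM in motor cortex and 23.7 to 39.2 CPM in visual cortex. The other neurofilament genes of the list lay near 0, with single mice at -0.06 to 0.23 for Nefm and -0.14 to 0.14 for Nefl. The gene of Nefh overlaps Ap1b1 and the libraries carry no strand, so its count is uncertain.

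Among layer 6 and subplate markers 4 of 15 were higher in each direction (median 0.19). The median ran from 0.0059 without PBS mouse 80 to 0.58 without AL mouse 69, and the count towards motor cortex from 2 (without AL mouse 66, PBS mouse 80 or PBS mouse 84) to 8 (without AL mouse 69). In the AL mice alone 1 was higher in motor cortex and 4 higher in visual cortex (median -0.17), and in the PBS mice alone 11 and 3 (median 0.86). Ccn2, a subplate marker, was higher in motor cortex in 4 of 7 mice, with a log2 difference of 1.31 over all mice (edgeR adjusted p = 0.0265), -0.15 in AL mice and 2.64 in PBS mice. Its interaction with experiment, 2.78, did not pass the threshold (edgeR adjusted p = 0.0783). The Ccn2 call was lost without mouse 66, 76, 80 or 84 and under DESeq2. Nr4a2, an orphan nuclear receptor of the deepest layer and also an immediate early gene, was at 16.5, 26.0 and 29.8 CPM in motor cortex and 40.6, 76.4 and 124 CPM in visual cortex, without overlap (-1.71).

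**Figure D3:**
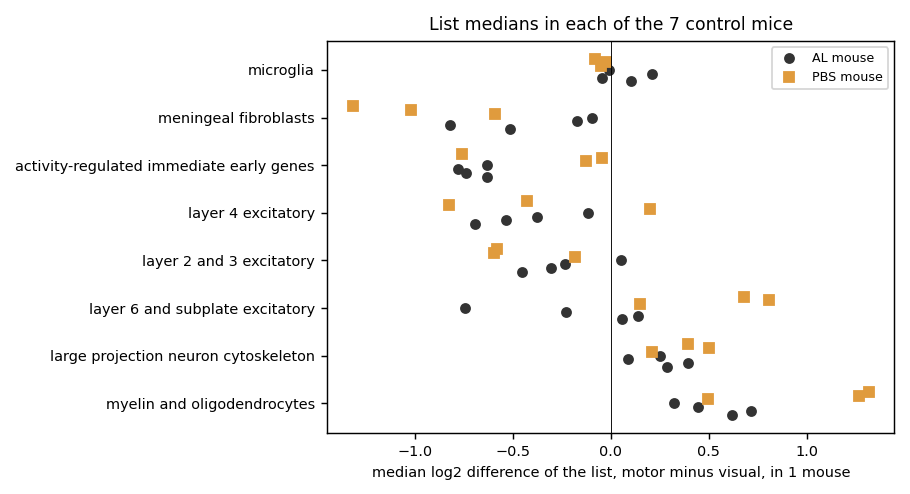
Median log2 difference, motor minus visual, of 8 gene lists in each of the 7 control mice, circles for AL and squares for PBS. Myelin genes are above 0 and meningeal fibroblast genes below 0 in all 7 mice, and the layer 4 median is above 0 in PBS mouse 76 alone.

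Interneuron genes were called in both directions, 8 of 28 higher in motor cortex and 4 higher in visual cortex (median 0.12), against 14.3% and 12.6% of all tested genes. Towards motor cortex were Npy (0.65), neuropeptide Y, without overlap at 138 to 217 CPM against 85.4 to 132 CPM, Cck (0.40), Pvalb (0.28), the marker of fast-spiking cells, and Tac1 (0.86). Towards visual cortex were Crh (-0.98) and Calb2 (-0.74), both without overlap, Vip (-0.43) and Reln (-0.27). Gad1, the main GABA synthesis enzyme, was at 0.02 and Sst, somatostatin, at 0.28 (edgeR adjusted p = 0.0773).

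Receptors for serotonin, noradrenaline, dopamine, histamine and acetylcholine were higher in motor cortex for 10 of 31 and higher in visual cortex for 5 (median 0.17). Without mouse 76 the counts were 9 and 6 and the median 0.095. Adra1b, an alpha-1 adrenoceptor, was at 36.6, 37.8 and 40.6 CPM in motor cortex and 9.55, 12.3 and 25.3 CPM in visual cortex. The areas did not overlap, and the highest visual value was that of mouse 76. The log2 difference was 1.52, and 1.69 without that mouse. The nicotinic subunit Chrna7 (1.06) and the serotonin receptor Htr1f (0.90) were apart as well, and Chrna5 (1.71), Drd5 (1.44) and Htr1a (0.43) were higher in motor cortex in 7 of 7 mice with overlapping ranges. Htr5b (-1.78) and the histamine receptor Hrh1 (-0.69) were higher in visual cortex without overlap. Some of these levels were low. Over all control libraries, means in motor and visual cortex were 3.50 and 1.11 CPM for Chrna5 and 3.55 and 1.38 CPM for Drd5. For Htr5b they were 1.08 and 3.57 CPM. Among neuropeptide and opioid receptors 5 of 19 were higher in motor cortex and 4 higher in visual cortex (median -0.06). The median changed sign without AL mouse 69 (0.024) and in PBS mice alone (0.085). Within this list the delta opioid receptor Oprd1 (0.87) had the largest called difference towards motor cortex, and the neurotensin receptor Ntsr1 (-1.13), also a layer 6 marker, towards visual cortex.

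GABA-A receptor subunits were higher in motor cortex for 7 of 12 and higher in visual cortex for 2 (median 0.15), and 4 to 6 were higher in motor cortex when each mouse was left out. Gabra5, the subunit of many extrasynaptic receptors, was at 98.7, 107 and 123 CPM in motor cortex and 29.7, 41.5 and 112 CPM in visual cortex (1.19, edgeR adjusted p = 6.12e-05). The visual library of mouse 76, at 112 CPM, was the one that overlapped, and the log2 difference without that mouse was 1.38. Gabra3 was at 105 to 123 CPM against 67.2 to 73.7 CPM, without overlap (0.70). The count of Gabra5 is uncertain because its gene overlaps another and the libraries carry no strand. Glutamate receptor subunits were 10 of 24 higher in motor cortex and 4 higher in visual cortex (median 0.11), among them the AMPA subunit Gria1 (0.35) and the metabotropic receptor Grm8 (0.78) towards motor cortex, and the kainate subunit Grik1 (-0.66) and the NMDA subunit Grin2d (-0.59) towards visual cortex. Voltage-gated potassium channel genes were 15 of 36 higher in motor cortex and 4 higher in visual cortex (median 0.15). The axonal channels Kcna1 (0.42), Kcna2 (0.44) and Kcna6 (0.60) were each higher in motor cortex without overlap.

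Genes of axon guidance and adhesion were higher in motor cortex for 32 of 87 and higher in visual cortex for 19 (median 0.13). Sema3c, a secreted semaphorin, was at 37.8, 41.0 and 50.1 CPM in motor cortex and 15.0, 23.2 and 26.7 CPM in visual cortex, without overlap (0.91). Cdh9 (1.01), a cadherin, was also apart, whereas Sema5a (1.10) overlapped. Efna1, an ephrin ligand, was at 2.83 to 5.24 CPM in motor cortex and 9.06 to 13.9 CPM in visual cortex. Of the perineuronal net and extracellular matrix genes 6 of 15 were higher in motor cortex and 2 higher in visual cortex (median 0.08), with tenascin R, Tnr (0.63), and the link protein Hapln4 (0.42) both without overlap. Over the mice left out that median ran from 0.071 to 0.14, and the count towards visual cortex was 0 without PBS mouse 80. Also called towards motor cortex were Hapln2 (0.89), Vcan (0.45) and Adamts4 (0.93). Hapln2 is in the myelin list as well, and Vcan in the list of oligodendrocyte precursors. Acan did not pass the filter. Retinoic acid genes were 2 of 15 higher in motor cortex and 5 higher in visual cortex (median -0.10), against 14.3% and 12.6% of all tested genes. Their median ran from -0.25 without AL mouse 68 to -0.0059 without PBS mouse 76. The synthesis enzyme Aldh1a2 (-0.71) and the binding protein Crabp2 (-1.14), which are also meningeal genes, were higher in visual cortex without overlap, and the receptor Rara (0.65) was higher in motor cortex.

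**Figure D4:**
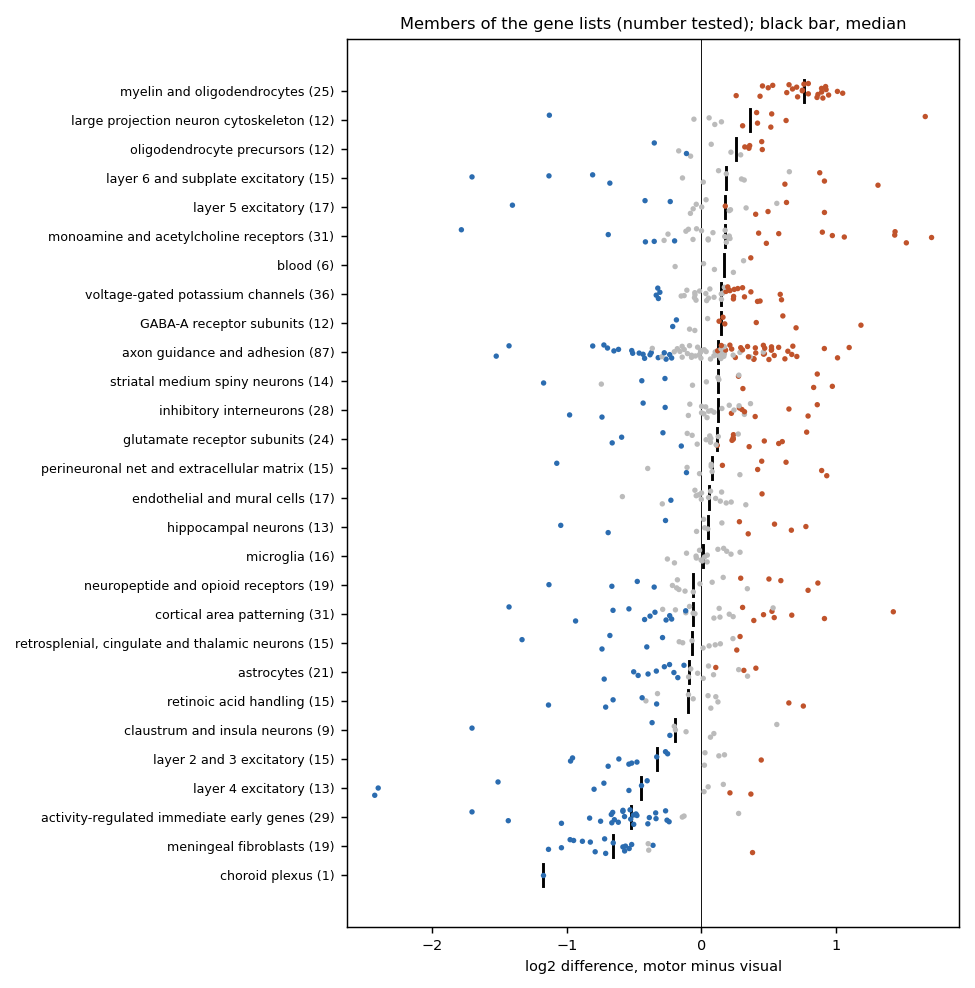
Log2 difference, motor minus visual, of every tested member of 28 gene lists; colours mark called genes, grey points were not called, and a black bar marks the list median. All 25 myelin genes lie to the right of 0, and 28 of the 29 immediate early genes to the left.

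Immediate early genes, which neurons transcribe within minutes of synaptic activity, were higher in visual cortex for 26 of 29 and higher in motor cortex for 0 (median -0.53). The promoters below are shown because these called members hold letters that match the motif of a factor known to answer neuronal activity. They are from RefSeq (GRCm38.p6), 5′ to 3′ on the gene's strand. Capitals mark a match to the full cAMP response element, TGACGTCA, or to the CArG box bound by serum response factor.
Egr2, chr10:67537464-67537533, plus strand: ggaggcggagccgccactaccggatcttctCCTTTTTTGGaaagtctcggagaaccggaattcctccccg
Btg2, chr1:134079284-134079351, minus strand: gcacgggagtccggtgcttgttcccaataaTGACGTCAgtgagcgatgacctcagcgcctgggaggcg
Dusp1, chr17:26508578-26508645, minus strand: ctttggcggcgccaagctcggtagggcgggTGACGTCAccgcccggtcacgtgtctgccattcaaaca
Dusp5, chr19:53529033-53529112, plus strand: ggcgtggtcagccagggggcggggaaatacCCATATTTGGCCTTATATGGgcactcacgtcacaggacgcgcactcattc
The search covered 250 bases before to 50 after each start, on both strands, and was chosen after the expression values were seen. Of the 23 immediate early genes with a promoter in the table, 2 (8.70%) held the cAMP response element and 2 (8.70%) a CArG box. The shares were 3.58% and 1.62% of all tested genes with a promoter, and 4.9% and 2.41% of those called higher in visual cortex. The 23 genes had 35 promoters and the 10399 tested genes had 13432. More promoters per gene raise a share, and no difference between shares was tested. The Egr site GCGTGGGCG was in 0 of the 23 and in 1.39% of tested genes. A match is a description of letters, not a bound site.

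Egr2, a zinc finger transcription factor, was at 13.9, 26.8 and 39.1 CPM in motor cortex and 23.9, 80.0 and 125 CPM in visual cortex (edgeR adjusted p = 4.66e-06). The 4 AL visual libraries were the highest, and the visual library of PBS mouse 80 was within the motor range. Btg2, an antiproliferative gene, was at 31.8, 44.7 and 50.1 CPM in motor cortex and 39.3, 114 and 119 CPM in visual cortex (-1.04). Egr1 was at 623, 675 and 905 CPM in motor cortex and 858, 1391 and 1692 CPM in visual cortex (-0.75), with a small overlap. Fos (-0.53) and Arc (-0.50), a synaptic plasticity gene, overlapped widely and were higher in visual cortex in 6 of 7 and 5 of 7 mice. Npas4, an early factor specific to neurons, was at 0.28 (edgeR adjusted p = 0.14). The list was higher in visual cortex for 26 members in AL mice alone (median -0.76) and for 7 in PBS mice alone (median -0.31), and for 20 without AL mouse 68 to 28 without PBS mouse 76. No hour of sampling or state of the animals at sampling was used here.

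Myelin and oligodendrocyte genes were all higher in motor cortex: 25 of 25, with a median of 0.76, and 25 of 25 whichever mouse was left out. Mbp, myelin basic protein, was at 1461, 2052 and 2871 CPM in motor cortex and 1057, 1176 and 1559 CPM in visual cortex (0.75, edgeR adjusted p = 0.00036). The areas overlapped at their edges, and every mouse was higher in motor cortex. Mag (1.01), myelin-associated glycoprotein, and Mobp (0.93) were higher in motor cortex without overlap, and the transcription factors Myrf (0.89) and Sox10 (0.53) were higher in motor cortex in 7 of 7 mice. The list median was 0.52 in AL mice alone and 1.10 in PBS mice alone. Oligodendrocyte precursor genes were 5 of 12 higher in motor cortex and 2 higher in visual cortex (median 0.26), with Pdgfra, the receptor that defines these cells, at 0.36; without AL mouse 66 the counts were 2 and 1. How much white matter each piece of tissue held was not measured, and its part in these differences was not tested.

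Astrocyte genes were higher in visual cortex for 10 of 21 and higher in motor cortex for 3 (median -0.10). Gfap, an intermediate filament, was at 97.4, 112 and 160 CPM in motor cortex and 115, 164 and 200 CPM in visual cortex (-0.40), and the ranges overlapped. S100b (0.40) was higher in motor cortex without overlap. Of 16 microglial genes 0 were called in either direction (median 0.01), and when each mouse was left out at most 1 was called in each direction. Of 17 endothelial and mural genes 1 was called each way, Rgs5 (0.45) towards motor cortex and Itm2a (-0.23) towards visual cortex, a call lost without AL mouse 66 or any 1 of the PBS mice.

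Genes of meningeal fibroblasts, which cover the cortex, were higher in visual cortex for 16 of 19 and higher in motor cortex for 1 (median -0.66). Ptgds, prostaglandin D synthase, was at 750, 1141 and 1344 CPM in motor cortex and 1439, 2018 and 2392 CPM in visual cortex, without overlap (-0.88). Fmod, an extracellular proteoglycan (-1.04), and Slc6a13, a GABA transporter (-0.98), were apart too. The summed list was 906 to 1605 CPM in motor cortex and 1751 to 2788 CPM in visual cortex. Its median was -0.37 in AL mice and -1.11 in PBS mice. Markers of neighbouring structures were also read, beside the 14.3% and 12.6% of all tested genes higher in motor and in visual cortex. Of striatal genes 5 of 14 were higher in motor cortex and 3 higher in visual cortex, with Drd1 (0.97), a dopamine receptor, towards motor cortex and Pdyn (-0.44), the dynorphin precursor, without overlap towards visual cortex. Of hippocampal genes 5 of 13 and 3, with Nnat (-1.05) and Neurod6 (0.78) both without overlap. The gene of Nnat overlaps Blcap. The hippocampal median ran from 0.0026 to 0.12 over the mice left out. The summed hippocampal list went towards visual cortex, at 762 to 882 CPM in motor cortex and 897 to 994 CPM in visual cortex. That sum holds Calb1, also in the layer 2 and 3 list. Over all control libraries Calb1 averaged 177 CPM in motor cortex and 273 CPM in visual cortex. Neurod6 went the other way, at 104 and 61.0 CPM. The sum is therefore no measure of hippocampal tissue alone. Of retrosplenial, cingulate and thalamic genes 2 of 15 and 5, with Slc17a6, the vesicular glutamate transporter of thalamus and retrosplenial cortex, at 18.6, 21.9 and 28.7 CPM in motor cortex and 44.8, 57.7 and 68.3 CPM in visual cortex (-1.33). Of claustrum and insula genes 0 of 9 and 3, of blood genes 1 of 6 and 0, and the only choroid plexus gene tested, Kcnj13, was higher in visual cortex (-1.18); Ttr reached at most 10 counts in a library. The part of neighbouring tissue in the results was not tested.

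The same contrast was then made in treated animals, which share no library with the controls: 5 dietary restricted females (aDR) and 3 males given young plasma (YMP). Of 13397 genes tested, 3794 (28.3%) were called. Of 3552 control calls tested there, 3528 (99.3%) had the same sign, and 2731 (76.9% of the control calls and 72% of the treated calls) were called in the same direction, with 0 in the opposite direction. Htr2a was at 1.48, Tenm3 at -1.40 and Nr2f1 at -0.63 in the treated mice. Myelin genes were 25 of 25 higher in motor cortex and immediate early genes 24 of 29 higher in visual cortex. Aldh1a3, a retinoic acid synthesis enzyme at 0.76 in controls, where its call was lost under 5 of the 7 leave-outs, was at -0.05 in treated mice (edgeR adjusted p = 0.932).

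**Figure D5:**
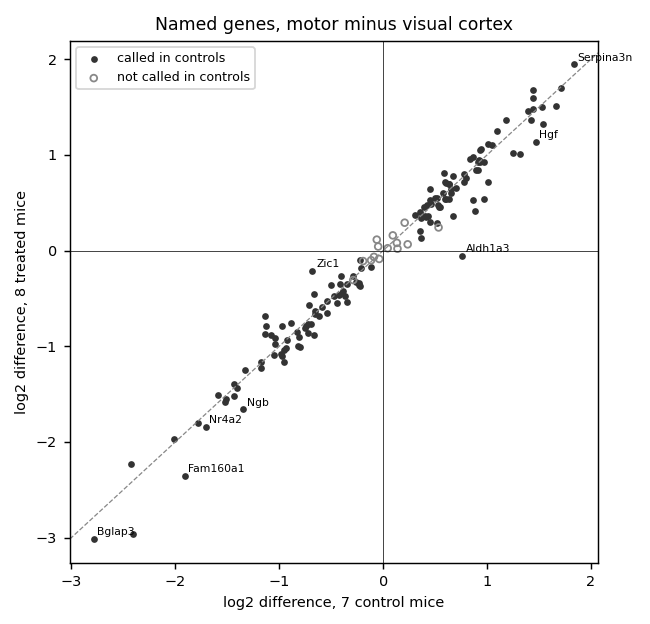
Log2 difference, motor minus visual, of the 154 described genes in the 7 control mice (horizontal) and in the 8 treated mice (vertical); the dashed line marks equal values. The genes lie along the line from Bglap3 (-2.78 and -3.01) to Serpina3n (1.84 and 1.95), with Aldh1a3 off it.

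Whether the area difference itself differed between groups was tested by interaction. Between the PBS and AL controls 0 of 13546 genes (0%) passed by edgeR, with 1038 at an unadjusted p under 0.05 and 4 by DESeq2. Leaving out PBS mouse 76 gave 29. Between aDR and AL 0 of 13507 (0%) passed by edgeR, with 677 at an unadjusted p under 0.05, 3 by DESeq2 and 8 without AL mouse 66. Between YMP and PBS 2 of 13648 (0.0147%) passed. Leaving out PBS mouse 76 gave 17, PBS mouse 80 gave 20 and YMP mouse 73 gave 4. The difference of Lmo3 was smaller in YMP mice by a log2 value of -0.93 and that of the lipoprotein receptor family member Lrp3 was shifted by 0.88 (edgeR adjusted p = 0.0305 for each). Neither passed without YMP mouse 77, YMP mouse 81 or PBS mouse 84. The gene of Lrp3 overlaps Slc7a10.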

How the data were processed

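Bulk RNA was sequenced per the labels' protocols after RNeasy isolation, Smart-Seq2 cDNA and Nextera XT, without strand. The authors deposited whole-number counts per gene in 1 table (21076 genes, 238 libraries). The submitters' processing notes name Trim Galore 0.3.7, STAR 2.5.3a, DESeq2 and the build GRCm38, with no roles; the counting program and annotation are not given in the sources used here.

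The counts were fitted with edgeR 4.0.16 in R 4.3.3 (filterByExpr, minimum count 10 and total 15; TMM; quasi-likelihood test; mouse as a block; Benjamini-Hochberg over all genes tested, threshold 0.05). DESeq2 1.42.0 was an alternative, and the procedure was tested on simulated data. CPM values use TMM library sizes. Total counts of 3.66 to 17.3 M per library set the precision. The mouse number in the labels marks the same animal and pairs the areas. Deviations from group means correlated at 0.12 on average within a mouse (-0.07 to 0.44) and -0.05 between mice of an experiment. Centring on group means ties the second average to the first, so it is no independent contrast. In 21 replicate pairs the chi-square per degree of freedom over genes with at least 20 counts was at least 1.69, so none was treated as a duplicate.

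Named genes were, among called genes with 1 sign in 7 of 7 mice and a mean of at least 5 CPM, the 10 largest differences and 5 smallest p in each direction, and up to 5 called members of each list (the 2 highest where none was called) and all of the area patterning list; other list members given were chosen after their values were seen. The members and lists were chosen with earlier results of these data known. Of 582 list genes, 4 had no row and 63 did not pass the filter. Of 154 named genes 154 matched RefSeq by symbol and 13 overlap another tested gene. Some named genes are not reported here.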

Additional observations from a re-analysis of the deposited data

Results flagged for a closer look

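Among 59 groups of values, 1 per animal, 3 held a mouse far from the others, where chance gives about 2.95. The area difference of Adra1b was 0.62 in PBS mouse 76 and 1.5 to 1.89 in the other mice. That of Ngb was -2.02 in PBS mouse 80 and -1.18 to -0.71 in the others. The median of the blood genes was -0.95 in AL mouse 63 and 0.07 to 0.39 in the others. By the interaction test, the area difference of Lmo3 differed between YMP and PBS mice by -0.93 and that of Lrp3 by 0.88.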

How the results depend on the processing

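The count of called genes was 2478 with DESeq2, 3560 with its size factors in edgeR, 3733 without a filter and 3187 at a minimum count of 50. With no replicate block it was 2774, and 3083 in treated mice, where the paired fit gave 3794. It moved by over 1.5 times with all 15 libraries unpaired (1909), in AL mice alone (1568), in PBS mice alone (2068) and against a 1.5-fold change (103). Leaving out each mouse gave 2742 to 3403. The interaction by experiment went from 0 to 4 with DESeq2, 193 without a filter, 1 with no replicate block and 0 to 29 over the mice left out; by diet from 0 to 3, 66 and 0 to 8 (DESeq2, no filter, mice left out); by plasma from 2 to 63 without a filter, 0 with no replicate block and 0 to 20 over the mice left out. Of 140 called genes among those named, 124 were called whichever mouse was left out, and 94 under every alternative except the fold test. Ccn2 reversed in AL mice alone (-0.15).

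List medians under settings other than leaving out a mouse were added after seeing the data. Those that moved by more than the spread between mice were, in PBS mice alone, layer 6 and subplate 0.86, perineuronal net 0.16, retinoic acid -0.29, neuropeptide receptors 0.085, meningeal fibroblasts -1.11, retrosplenial -0.16, claustrum -0.056 and choroid plexus -1.95; in AL mice alone, monoamine receptors 0.061, oligodendrocyte precursors 0.12 and retrosplenial 0.036; without a filter, retinoic acid -0.33, monoamine receptors 0.083, striatal 0.27, hippocampal 0.14 and choroid plexus -0.097; at a minimum count of 50, neuropeptide receptors 0.035 and precursors 0.15; for monoamine receptors 0.098 with no replicate block and 0.094 with all 15 libraries. Over the mice left out, medians ran from 0.071 to 0.14 (perineuronal net), 0.095 to 0.17 (monoamine receptors) and -0.11 to 0.024 (neuropeptide receptors). The cause was not tested. In genes of low count, depth limits what can be called.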

Other observations

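Gene families chosen after the values were seen gave further counts, to be read beside the 14.3% of all tested genes higher in motor cortex and the 12.6% higher in visual cortex. Of 13 mitochondrially encoded protein genes 8 were higher in motor cortex and 0 in visual cortex (11 and 0 in treated mice), while of 36 nuclear complex I subunits 1 and 0 were called. Sodium channel subunits were 6 of 10 and 0 (5 and 1 in treated mice), Hsp and DnaJ chaperones 6 of 64 and 14, and cytosolic ribosomal protein genes 4 of 76 and 5.

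Some genes under a mean of 5 CPM separated the areas completely. Rxfp2, a relaxin family receptor, was at 3.06 to 4.86 CPM in motor cortex and 0 to 0.534 CPM in visual cortex. Olfr78, an olfactory receptor, was at 3.49 to 6.99 CPM in motor cortex and 0.119 to 1.69 CPM in visual cortex. Stac was at 0 to 0.655 CPM in motor cortex and 1.6 to 3.01 CPM in visual cortex. Tph2, the serotonin synthesis enzyme of the raphe, was at 0.206 to 1.56 CPM in motor cortex and 1.07 to 5.61 CPM in visual cortex, with overlap.

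Among the 15 brain regions of the series, entorhinal cortex had the highest level for 10.7% of the genes higher in visual cortex and 2.74% of those higher in motor cortex, against 5.81% of all genes tested. Its level was above both areas for 41.3% of the genes higher in visual cortex, near the 40.6% of all genes. For genes higher in motor cortex this was 20.7%. It was nearer visual than motor cortex for 55.6%, 66.6% and 54.2% of the genes higher in visual cortex, higher in motor cortex and tested. Medulla had the highest level for 4.21% and 15.2%, against 11.8%.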
